A study of Mus musculus with 8 samples.

Results

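The transcription factors that build and maintain skeletal muscle were examined in the quadriceps of mice kept at low oxygen. They were the 9 genes Myod1, Myf5, Myf6, Myog, Pax7, Mef2a, Mef2c, Mef2d and Six4, and every probe set that the array annotation pairs with exactly 1 of these symbols was taken. This gave 25 probe sets of the 45037 on the array that are not controls. Total RNA of quadriceps muscle from adult male mice of the C57Bl/10 strain was hybridised to 8 Affymetrix mouse expression arrays, 4 labelled Control and 4 labelled Hypoxia. Control mice stayed in room air for 2 weeks. Hypoxia mice were housed in a closed chamber where oxygen fell stepwise from 21% to 8% within 1 week and was then held at 8% for 7 days. The labels name no genetic change in either group and do not say that each array was a separate animal, so p-values measure the spread between these samples, which may be technical. The chamber and the low oxygen cannot be told apart.

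Myod1, Myf5, Myog and Myf6 (also called MRF4) encode the MyoD family of basic helix-loop-helix factors, which pair with E proteins and bind the E-box of muscle genes. Myf5 and Myod1 mark committed muscle precursors, Myog drives their differentiation, and Myf6 is the member best known from mature fibres. Mef2a, Mef2c and Mef2d encode MADS-box factors that act together with the MyoD family and respond to calcium and stress kinases. The Six4 product is a homeodomain factor that binds the MEF3 motif with EYA coactivators. Pax7 is the paired-box factor that defines satellite cells, the stem cells of muscle.

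After hypoxia, transcripts of Mef2c, Myod1 and Six4 were lower and those of Myf6 were higher, while no probe set of Mef2a, Mef2d, Myog or Myf5 passed the test. Values are MAS5 signals, the array maker's intensity on a linear scale, given as mean ± SD with 4 arrays per group. A change is the mean of log2(signal + 16) in Hypoxia less that in Control, given with its standard error (SE) from a limma fit over 27023 probe sets, and it passes at a Benjamini-Hochberg adjusted p under 0.05. Of the 25 probe sets, 21 were above the filter on dim signals, which lay at a signal of about 90.2, and 8 of the 9 genes had at least 1 such probe set. Of these 21, 9 fell, 1 rose and 11 did not pass. Over all probe sets tested, 28.8% passed, 16.4% lower and 12.5% higher. Taken by the brightest probe set, 4 of the 8 genes passed, 3 lower and 1 higher, where 31.9% of all genes did. The median change was -0.27 over the 21 member probe sets and -0.04 over all probe sets tested. The 10 that passed lay on 4 genes and included all 5 probe sets of Mef2c, so they are not 10 separate observations.

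**Figure D1:**
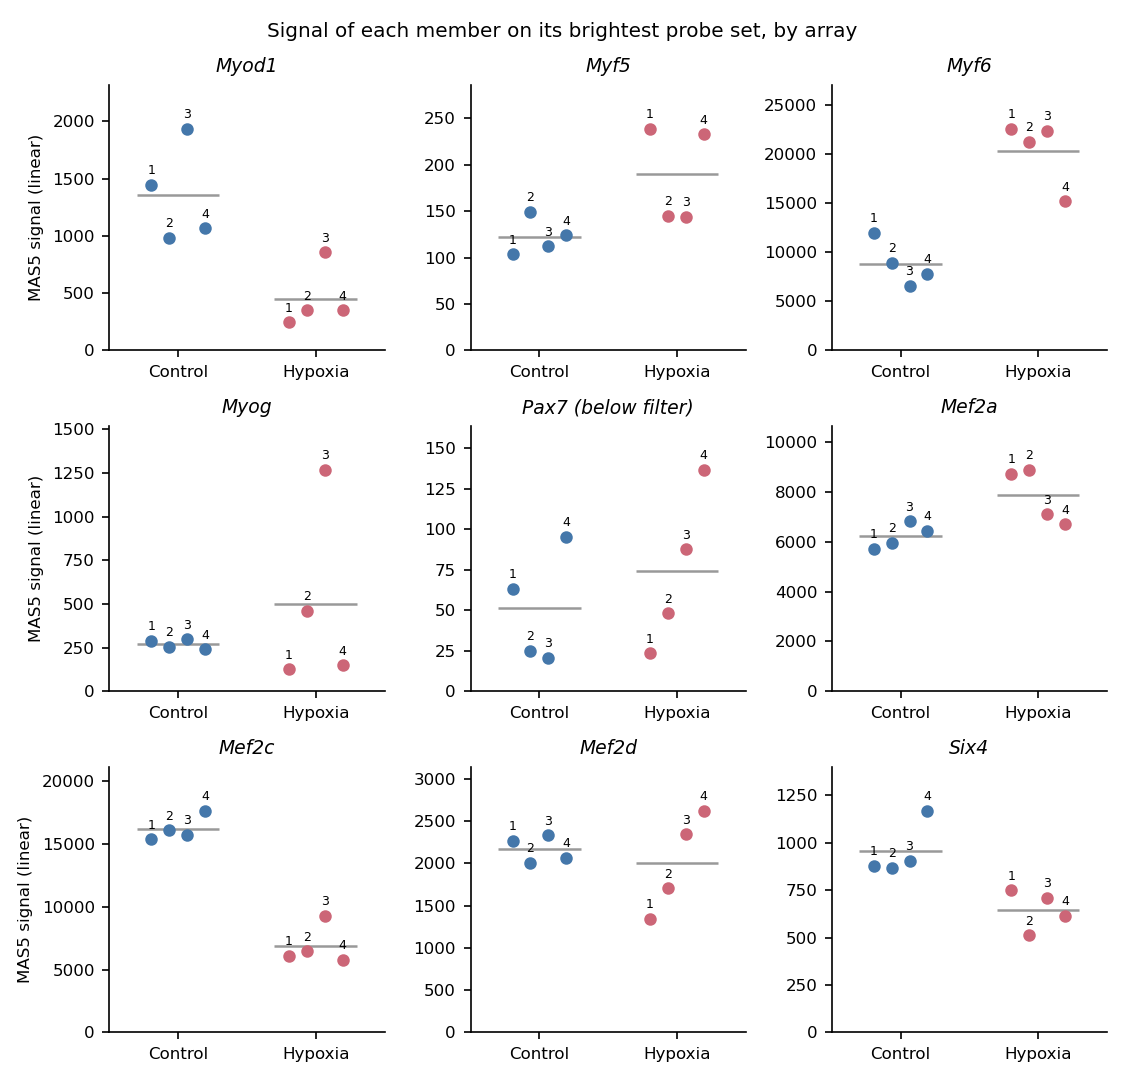
MAS5 signal (linear axis from 0) of each member on its brightest probe set, with 1 point per array, the array's replicate number above it and a bar at the group mean of 4 arrays. Control and Hypoxia points do not overlap for Myod1, Myf6, Mef2c and Six4, and the Hypoxia points of Myog lie both above and below its Control points.

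Arrays differed in RNA quality. On the arrays' control probe sets for Gapdh, the 3' signal divided by the 5' signal, a value that rises with broken or incompletely copied RNA, was 3.44 in Hypoxia 1. It was 0.801 to 0.874 in Hypoxia 2 to 4 and 0.776 to 0.807 in Control (two-sided exact permutation test, p = 0.0571). For beta-actin this value reached 2.53 in Hypoxia 1 and lay between 1.40 and 1.59 in Hypoxia 2 to 4 and between 1.09 and 1.25 in Control (two-sided exact permutation test, p = 0.0286, the smallest it can give with 4 against 4 arrays). Without Hypoxia 1, 9 member probe sets were again lower and 1 higher, where 28.6% of all probe sets passed, 16.1% lower and 12.5% higher. In Hypoxia 2 to 4 the beta-actin value was also above all Control arrays, so this difference still goes with the groups without Hypoxia 1. The part of RNA quality in the member changes was not tested. The tissue's own markers were present, with mean Control signals of 57308 for Ckm, the muscle creatine kinase, and 58243 for Acta1, the skeletal actin. All 8 fibre markers fell, from a summed signal of 391678 to 480413 in Control to 225636 to 303753 in Hypoxia. In whole muscle, fewer cells of a type and less RNA per cell cannot be told apart.

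Mef2c, a MEF2 gene strongly expressed in skeletal muscle, fell on every probe set. Its brightest probe set read 15375, 16086, 15732 and 17627 in Control 1 to 4, and 6089, 6473, 9279 and 5778 in Hypoxia 1 to 4. The 2 groups lay far apart, with Hypoxia 3 the closest to Control. The change was -1.25 ± 0.16 (SE), a 2.38-fold fall (adjusted p = 9.90e-05 by limma, n = 4 per group).

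The probe set 1424852_at gave the smallest p among all member probe sets. It read 14051, 14095, 12949 and 12683 in Control and 3636, 3050.0, 4899 and 3598 in Hypoxia. The highest Hypoxia value was far below the lowest Control value, and the fall was 3.58-fold (-1.84 ± 0.15, adjusted p = 4.01e-06 by limma).

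The largest fall was on 1421028_a_at, from 6067 ± 790.1 to 1650 ± 905, or 3.97-fold (-1.99 ± 0.27). Here Hypoxia 3 read 3004, where the other 3 read 1129 to 1285, and it still lay below the lowest Control value of 5358. The remaining probe sets, 1451506_at and 1451507_at, changed by -1.08 ± 0.20 and -1.18 ± 0.21, and both passed. Each of the 5 sets separated the groups without overlap, which 30.1% of all tested probe sets did. Of these, 1424852_at, 1451506_at and 1451507_at, were designed on 1 expressed sequence tag, so they share a source. The falls kept their direction and passed under every alternative run, and without Hypoxia 1 the changes ran from -0.92 to -1.85.

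Mef2a, the MEF2 gene abundant in many tissues, gave another picture. None of its 6 probe sets passed by limma, and 1 of them, the brightest, had an unadjusted p under 0.05. The brightest read 5712, 5953, 6809 and 6444 in Control and 8719, 8875, 7093 and 6708 in Hypoxia. The groups overlapped, because Hypoxia 4 lay below Control 3, and the change was 0.33 ± 0.14 (95% interval 0.02 to 0.63, adjusted p = 0.105 by limma). On 1452347_at the change was 0.00 ± 0.20, with an interval of -0.42 to 0.43.

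The changes of the 6 Mef2a probe sets ran from -0.27 to 0.33. Hypoxia 1, the array with the high 3' to 5' ratios, was the lowest Hypoxia array on 4 of them. On 1452347_at it read 2849, where Hypoxia 2 to 4 read 4796 to 5764 and the Control arrays 4422 to 4645. On 1421252_a_at it read 761 against 1461 to 1713. Without it these 2 probe sets changed by 0.23 ± 0.12 and 0.19 ± 0.17, neither passing. The part of RNA quality in these values was not tested.

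Mef2d, the third MEF2 gene of adult muscle, did not pass on any of its 3 probe sets by limma, and 0 of them had an unadjusted p under 0.05. The brightest read 2269, 2010, 2330 and 2067 in Control and 1348, 1704, 2343 and 2622 in Hypoxia. The Hypoxia values lay on both sides of the Control values, for a change of -0.16 ± 0.20 (interval -0.59 to 0.27). The next probe set averaged 906 ± 44.7 in Control and 1000.1 ± 212 in Hypoxia, a change of 0.12 ± 0.18. The dimmest, 1421388_at, changed by -0.55 ± 0.40, with an interval from -1.43 to 0.33 that leaves its direction undetermined.

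**Figure D2:**
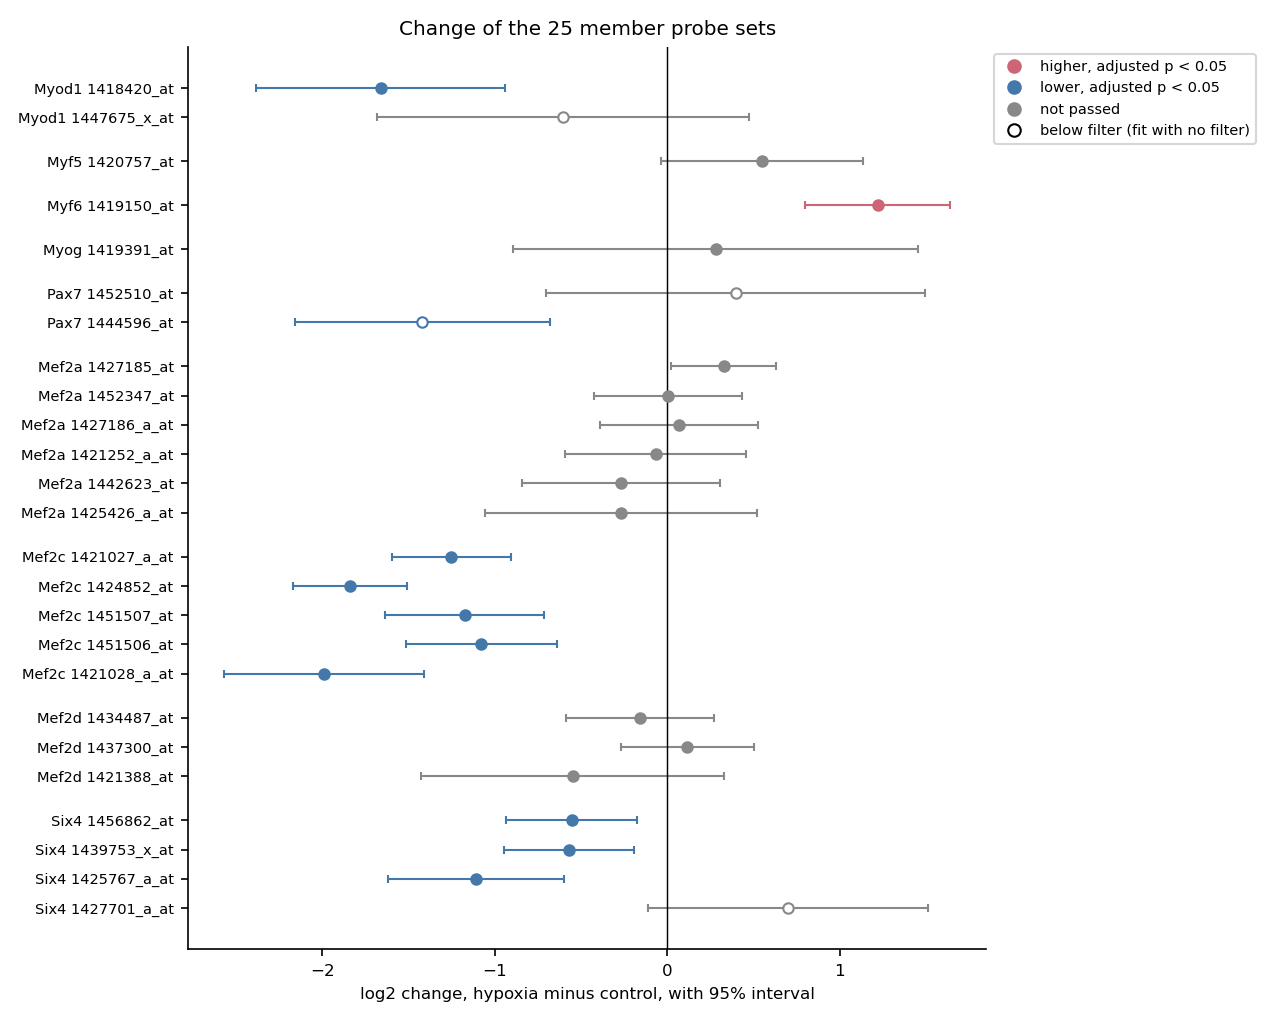
Log2 change of each of the 25 member probe sets, hypoxia minus control, with its 95% interval from the limma fit. Filled points are from the fit on probe sets above the filter and open points from the fit with no filter, and the 5 Mef2c probe sets lie between -1.99 and -1.08 while the Mef2a probe sets lie between -0.27 and 0.33.

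A difference between genes within an array does not depend on a constant scaling of that array, apart from the small effect of the added 16. The log2 value of Mef2a minus that of Mef2c, each on its brightest probe set, was -1.38 ± 0.12 in Control and 0.20 ± 0.41 in Hypoxia. The lowest Hypoxia value, -0.39, was above the highest Control value, -1.21, so the 2 genes changed unequally in all 4 Hypoxia arrays. Mef2c minus Mef2d moved by -1.10 between the groups without overlap, and Mef2a minus Mef2d moved by 0.48 with overlapping groups. These shifts were 1.47, -1.22 and 0.26 without Hypoxia 1. They show unequal change, and not that Mef2a or Mef2d stayed level.

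Myod1, the founding member of its family, fell on the probe set that was above the filter. The set read 1448, 984, 1936 and 1069 in Control and 245, 351, 859 and 352 in Hypoxia. Every Hypoxia array was below every Control array, with Hypoxia 3 near the lowest Control value. The change was -1.66 ± 0.33, a 3.17-fold fall (adjusted p = 0.00246 by limma), and it was -1.43 ± 0.32 without Hypoxia 1 and -2.02 without Hypoxia 3. The other Myod1 probe set was dim, between 1.6 and 61.4 on the 8 arrays, and did not pass in the fit with no filter (-0.60, adjusted p = 0.484 by limma).

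Myf6 rose, as the only member to do so. Its single probe set read 11965, 8907, 6597 and 7821 in Control and 22546, 21253, 22346 and 15159 in Hypoxia. The lowest Hypoxia array was above the highest Control array, and Hypoxia 1 to 3 lay close to each other. The change was 1.22 ± 0.19, a 2.33-fold rise (adjusted p = 0.000513 by limma, 1.16 ± 0.20 without Hypoxia 1).

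Myf5, which lies beside Myf6 in the mouse genome, was dim on both sides. It read 104, 150, 112 and 124 in Control and 239, 145, 144 and 233 in Hypoxia. Hypoxia 1 and 4 were above all Control arrays and Hypoxia 2 and 3 were within their range. The change was 0.55 ± 0.27 with an interval of -0.04 to 1.14, and it did not pass (adjusted p = 0.154 by limma).

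Within each array, log2 Myod1 minus log2 Myf6 went from -2.70 ± 0.64 in Control to -5.58 ± 0.75 in Hypoxia. That shift of -2.88, or -2.60 without Hypoxia 1, separated the groups in all arrays. The same differences of Myod1 against Myf5 and against Myog shifted by -2.21 and -1.94, also without overlap, whereas the 3 differences among Myf5, Myf6 and Myog overlapped between the groups.

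Myog varied widely among the Hypoxia arrays. Its probe set read 291, 257, 298 and 241 in Control and 127, 462, 1269 and 151 in Hypoxia. Hypoxia 1 and 4 lay below all Control arrays, and Hypoxia 2 and 3 lay above them. The change of 0.28 ± 0.54 had an interval of -0.90 to 1.45 and did not pass (adjusted p = 0.748 by limma). Hypoxia 3 set its sign, since without that array the change was -0.35 (adjusted p = 0.521 by limma).

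The stretch before the Myog start is shown because it carries the binding letters of 3 of the families described here. It is bases 145 to 1 upstream of the start that RefSeq annotates, on the plus strand of GRCm38.p6 at chr1:134289859-134290003. Capitals mark, from the left, an E-box, the MEF3 motif bound by Six4 and its relatives, the MEF2 site known in this promoter, and a further E-box.
Myog: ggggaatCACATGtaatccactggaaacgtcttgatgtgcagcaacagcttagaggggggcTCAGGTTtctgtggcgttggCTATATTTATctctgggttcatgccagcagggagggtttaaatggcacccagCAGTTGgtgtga

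RefSeq's table gave 10 windows of 300 bases, each from 250 bases before a start to 50 after it, for 7 of the members. Both strands were searched for the E-box CANNTG, MEF3 as TCAGGTT, the MEF2 consensus, and that consensus with any last base, which contains it. Apart from these MEF2 forms, which share the Mef2a match, no marked match overlaps a match of another motif. An E-box was found in 3 member windows, where 72.3% of the 32851 windows of all genes had one. MEF3 was found in 3 of 10, against 4.07% of all windows, in Myog, Mef2c and Six4. The MEF2 consensus was found in 1 of 10, against 3.19%, in Mef2a. The consensus with any last base was chosen to take in the known Myog site, and it was found in 3 of 10 member windows (Myog, Mef2a and a Mef2c window), against 7.66% of all. Matches describe the letters of these windows only.

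Further stretches show the MEF3 letters of Mef2c and Six4 and the MEF2 consensus of Mef2a. The MEF3 letters also lie before Myog, which did not pass, and were absent from the other windows of Mef2c and Six4. They were not found in the windows of Mef2a, Mef2d and Myf5, which did not pass, or of Pax7. Myod1 and Myf6, which passed, had no window. A link between these letters and the changes was not tested. Capitals mark the MEF3 letters, read here on the reverse strand, with an E-box in the Mef2c stretch, and the MEF2 consensus in Mef2a, which spans the annotated start. The stretches are chr13:83503784-83503813 on the plus strand, and chr12:73113324-73113353 and chr7:67372841-67372870 on the minus strand, all in GRCm38.p6.
Mef2c: atAACCTGAaatgaagCAAGTGtgtgctat
Six4: ggcctgggggaAACCTGAtcggccagatcc
Mef2a: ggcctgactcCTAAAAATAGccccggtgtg

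Six4 fell on its 3 probe sets above the filter, by different amounts. On 1425767_a_at it read 1018, 893, 825 and 783 in Control and 243, 386, 580 and 457 in Hypoxia. The highest Hypoxia array stayed below the lowest Control array, and the fall was 2.15-fold (-1.11 ± 0.23, adjusted p = 0.00363 by limma). On 1456862_at the signals were 955 ± 143 and 647 ± 105.0, a 1.47-fold fall (-0.55 ± 0.17, adjusted p = 0.0311 by limma). On 1439753_x_at they were 950.3 ± 181 and 630 ± 67.9 (-0.57 ± 0.17, adjusted p = 0.0268 by limma). These last 2 share an expressed sequence tag, and both lost their call after quantile normalization (adjusted p = 0.0739 and 0.0740 by limma) and median centring (0.0874 and 0.0841), while 1425767_a_at kept it under every alternative run. Both also lost it without Control 3, Control 4, Hypoxia 2 or Hypoxia 4, with changes from -0.58 to -0.45, and 1439753_x_at lost it without Control 2 as well (-0.58). A further probe set, 1427701_a_at, was at 56.5 or below on all 8 arrays. In the fit with no filter it changed by 0.70 ± 0.37, with the opposite sign, and did not pass (adjusted p = 0.251 by limma).

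Pax7 had no probe set above the filter. The set 1444596_at read 98.8, 127, 53.0 and 87.6 in Control and 23.8, 18.6, 28.9 and 20.7 in Hypoxia, so the groups did not overlap although 6 of the 8 signals were under 90.2. In the fit with no filter it changed by -1.42 ± 0.34 (adjusted p = 0.0125 by limma), where 16.4% of all probe sets passed, 9.41% lower and 7.00% higher. The other set, 1452510_at, ran from 20.9 to 95.6 in Control and from 23.5 to 137 in Hypoxia and changed by 0.40 ± 0.50, with the opposite sign, so a direction for Pax7 is uncertain.

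**Figure D3:**
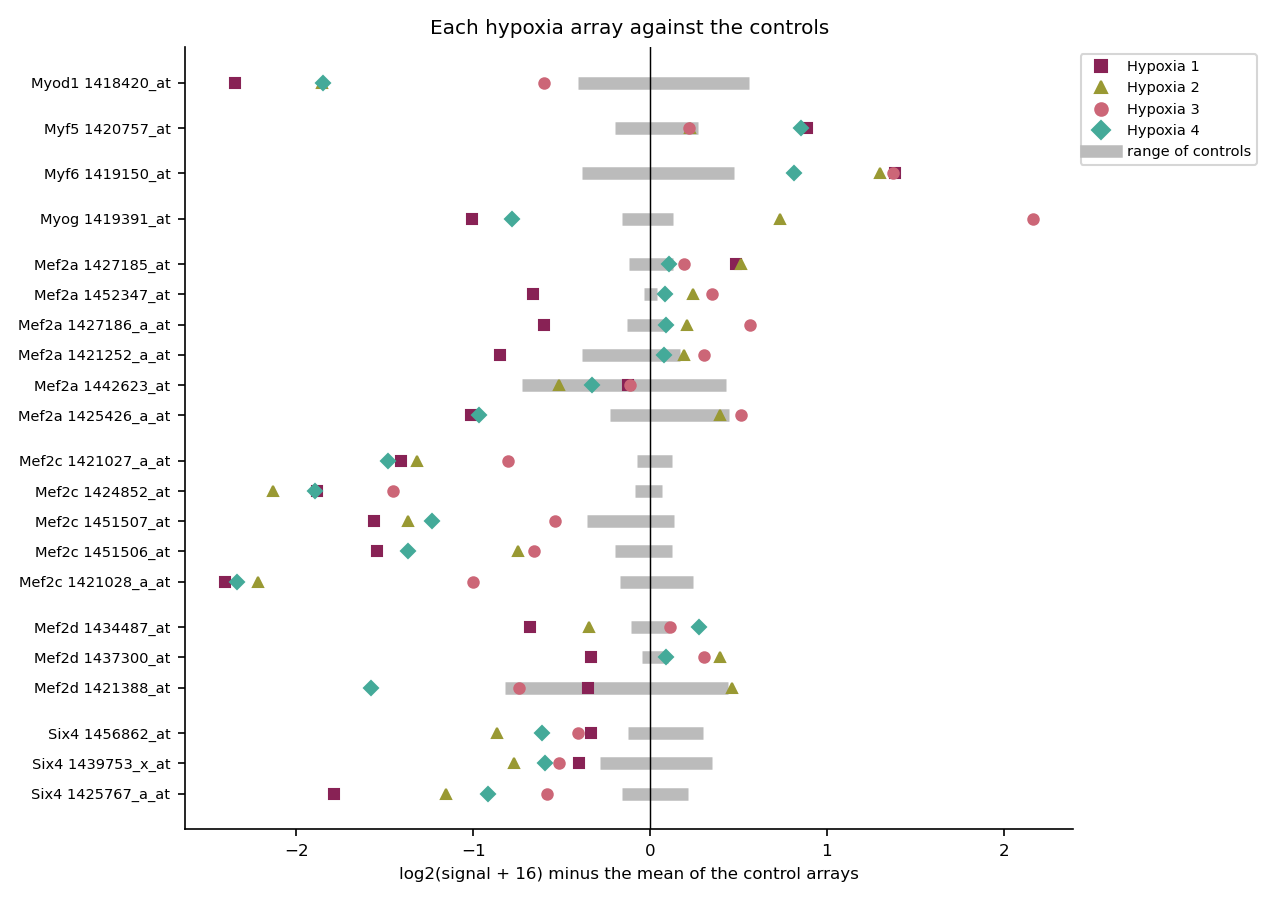
Log2(signal + 16) of each Hypoxia array minus the mean of the 4 Control arrays, for the 21 member probe sets above the filter, with the range of the Control arrays in grey. Hypoxia 3 is the rightmost point on all 5 Mef2c probe sets, on Myod1 and on Myog, and Hypoxia 1 lies left of the other Hypoxia arrays on 4 Mef2a probe sets.

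The Hypoxia arrays were not alike for these genes. Hypoxia 3 had the highest value of the 4 on 13 of the 21 member probe sets, and on 29.9% of all probe sets tested. It was the highest on 7 of the 9 that fell, among them all 5 of Mef2c, and on 42.4% of the 4422 probe sets that fell in all. Hypoxia 1 had the lowest value on 12 of the 21, and on 37.0% of all. Probe sets of 1 gene share their RNA and often their target, so these counts describe the arrays and were not tested.

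Cell types that also carry these factors were checked by marker lists. Satellite cell markers had a summed signal of 1467 to 2217 in Control and 1602 to 1973 in Hypoxia, with 1 of 7 lower, Pax3, and with Pax7, Calcr and Megf10 below the filter. Cdh15, a cadherin of satellite cells and myoblasts, changed by 0.16 and did not pass. Mef2c is also transcribed in endothelium, whose 10 markers summed to 8368 to 12860 in Control and 6033 to 10077 in Hypoxia, with overlap and with 3 lower. At an unadjusted p under 0.05 by limma, 6 of these 10 were lower and none higher. Cldn5, a tight junction protein, changed by -1.09 and passed, and Kdr by -0.95 without passing. Only Pecam1 and Cdh5 had positive changes, of 0.16 and 0.10, and neither passed.

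Other cell types also moved with the groups. All 9 fibroblast markers fell, from a summed signal of 55780 to 64001 in Control to 15045 to 20099 in Hypoxia, and all 4 adipocyte markers measured fell, with sums of 29351 to 61874 in Control and 17481 to 26746 in Hypoxia. Of 8 smooth muscle and pericyte markers 3 fell and 1 rose (36805 to 43307 in Control, 20831 to 33725 in Hypoxia). Neutrophil markers rose on 3 of 4 probe sets above the filter, led by S100a9, with sums of 463 to 947 in Control and 3207 to 6154 in Hypoxia, while the granule and receptor markers Ltf, Mmp8 and Cxcr2 were below the filter.

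Macrophage markers gave 1 higher and 2 lower of 9, with overlapping sums of 12221 to 18016 and 10170 to 18641. At an unadjusted p under 0.05 by limma, 1 was higher and 4 were lower. The marker that rose was Cd68, from a mean of 289 to 4562 (3.93), which adds to the Hypoxia sums. All other macrophage markers above the filter had negative changes. No B, T or Schwann cell marker passed by limma, though 1 of each list was lower at an unadjusted p under 0.05. B and T cell markers summed to 705 to 817 in Control and 481 to 683 in Hypoxia, without overlap, though Cd79a, Cd79b, Cd3e and Cd3d were below the filter. Schwann cell markers summed to 3812 to 4870 in Control and 2714 to 4909 in Hypoxia, with overlap. The part of these cell types and of the endothelium in the changes of Mef2c, Myod1, Six4 and Myf6 was not tested.

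The partners of the members were described by lists of genes, each gene by its brightest probe set, of which 14.0% of all 13258 genes were higher and 17.8% lower with a median change of -0.04. Among E proteins and inhibitors of helix-loop-helix factors, 2 of 18 tested genes fell and none rose by limma (3 higher and 3 lower at an unadjusted p under 0.05; list median -0.15). The falls were Msc, a repressor of MyoD target genes, from 382 ± 97.1 to 191 ± 33.4 (-0.92 ± 0.23), and Hes1, an effector of Notch signalling (-0.80 ± 0.21). The E proteins Tcf12, Tcf4 and Tcf3 changed by 0.02, -0.23 and -0.61, without passing. The Id inhibitors moved in both directions, with Id1 at -0.21, Id2 at 0.45, Id3 at 0.51 and Id4 at -0.66, and none passed. Id2, Id3 and Id4 each had an unadjusted p under 0.05 by limma. Id2 passed as higher after quantile normalization, and Id3 did so after median centring or without Hypoxia 2. Id4 passed as lower without Hypoxia 1, without Hypoxia 3 and under some other alternatives. Without Hypoxia 1, 4 of 17 fell, without Hypoxia 3, 3 of 18 did, and without Hypoxia 2, 1 rose.

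Among the relatives of Six4 and its EYA and DACH partners, 2 of 7 tested genes fell and 1 rose (list median -0.02). Eya1, a coactivator of Six4 and its relatives, fell from 1530 ± 136 to 666 ± 98.4 (-1.19 ± 0.16, adjusted p = 0.000148 by limma), and its other probe set gave -1.83. Dach2, a corepressor known to restrain Myog, fell from 299 ± 67.2 to 113 ± 100.2 (-1.71 ± 0.54). Eya3 was higher by 0.68 on its brightest probe set, and its 2 others gave -0.77 and -1.18, so its direction is uncertain. The rise of Eya3 no longer passed without Control 3, Control 4, Hypoxia 2, Hypoxia 3 or Hypoxia 4. The fall of Dach2 no longer passed without any 1 Control array, Hypoxia 2 or Hypoxia 3.

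Among MEF2 repressors, cofactors and upstream kinases, 14 of 37 tested genes fell and 7 rose (list median -0.25). Smyd1, a muscle histone methyltransferase, fell from 7027 ± 460.0 to 1487 ± 319 (-2.25 ± 0.16), with 1 of its 4 other probe sets at 0.14. Smarcd3, a chromatin remodelling subunit that works with MyoD, fell from 3281 ± 309.0 to 871 ± 157 (-1.91 ± 0.16). Of the calcium and calmodulin kinases, whose family relieves MEF2 of its repressors, Camk2a and Camk1 fell by 2.01 and 1.83 on the log2 scale and Camk2g changed by -0.98, also passing. Camk2d was higher by 0.97 on its brightest probe set (adjusted p = 0.000442 by limma), but its 5 others ran from -1.55 to 3.03, so its direction is uncertain. Camk2b and Camk4 changed by -0.05 and 0.59 without passing. The other genes that rose were Vgll3 (1.55), Kat2b (1.13), Tead4 (0.77), Vgll2 (0.60), Mrtfb (0.51) and Smarca4 (0.41, with its other probe set at -0.15). The number of genes that rose was 3 without Control 1, 4 without Control 3, Control 4, Hypoxia 1, Hypoxia 2 or Hypoxia 3, and 5 without Control 2 or Hypoxia 4.

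Among known targets of MyoD, myogenin or MEF2, 16 of 40 fell and 10 rose (list median -0.24, or -0.07 after quantile normalization), so the list moved in both directions. When 1 array was left out, the falls ran from 11 to 16 and the rises from 9 to 11. The falls numbered 13 after quantile normalization or median centring, and 11 of 43 with no filter. Rb1, the retinoblastoma protein of cell cycle exit, rose from 902 ± 70.6 to 4200 ± 738 (2.19 ± 0.15), and Cdkn1a, the inhibitor p21, changed by 2.82. Stac3, which links the surface calcium channel to release, fell from 4966 ± 1029 to 609 ± 263 (-3.07 ± 0.26). Actc1, the cardiac and fetal actin of muscle, fell from 4303 ± 2188 to 281 ± 154 (-3.91 ± 0.39).

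Among satellite cell and regeneration genes, 5 of 27 fell and 1 rose (list median -0.16). Cd34, a surface glycoprotein of satellite cells and also of endothelium and fibroblasts, fell from 2271 ± 374 to 615 ± 272 (-1.95 ± 0.27). Rapsn, which clusters acetylcholine receptors, changed by -1.19 and Pax3, the paralogue of Pax7, by -1.53, and both passed with overlapping groups. Notch1 changed by -0.59 and Sdc3, a syndecan, by -0.44, and both passed. The other probe set of Notch1 gave -0.02 and that of Sdc3 gave -0.40. Fgfr4, a growth factor receptor of regenerating muscle, was higher by 0.67 with its other probe set at -0.82, so its direction is uncertain. The embryonic myosin Myh3 and the perinatal myosin Myh8, which mark new fibres, changed by -0.05 and -0.44 without passing. Without Hypoxia 1, Myh8 changed by -0.69 and passed as lower. Without Hypoxia 1 the list's falls numbered 3, namely Cd34, Rapsn and Myh8, while Pax3, Notch1 and Sdc3 lost their calls. The falls also numbered 3 without Hypoxia 4, 3 without any 1 Control array and 3 after quantile normalization. They numbered 2 with the replicate block and 8 with the mean of each gene's probe sets. The rise of Fgfr4 no longer passed without Control 1, Control 4, Hypoxia 2 or Hypoxia 3, with no filter, with the replicate block or with the mean of its probe sets, and without Hypoxia 4 a further gene, Mymx, also rose.

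**Figure D4:**
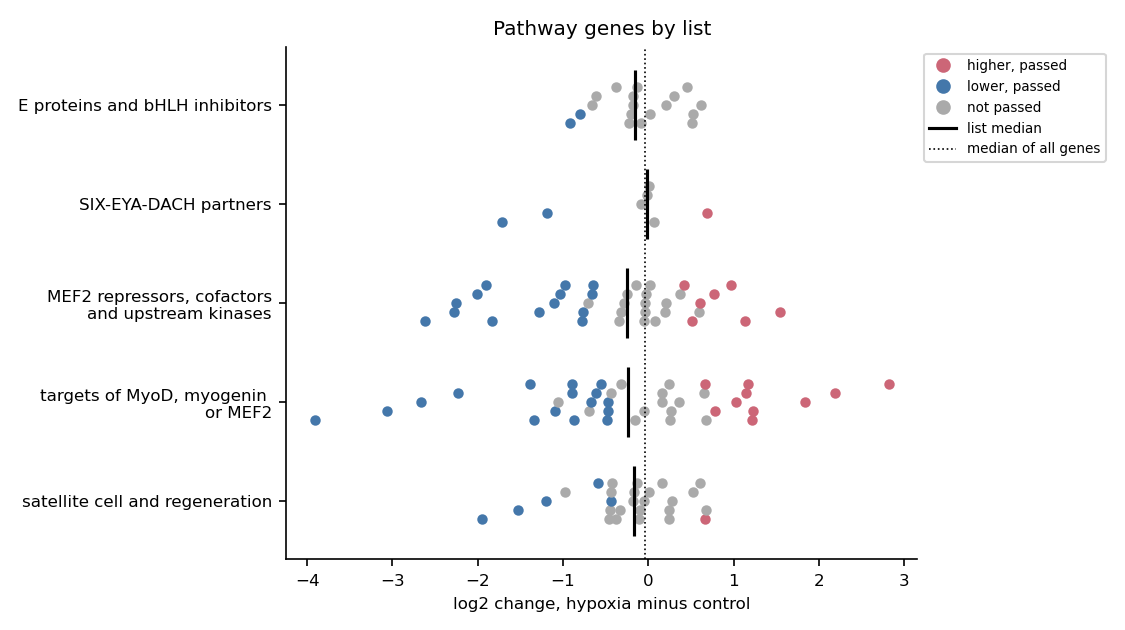
Log2 change (hypoxia minus control) of each tested gene of the 5 lists, by its brightest probe set, with a bar at the list median and a dotted line at the median of all genes, -0.04. Genes that passed lie on both sides in the lists of targets and of MEF2 cofactors, and most genes of the E protein and satellite cell lists did not pass.

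The genes whose profiles over the 8 arrays were nearest to those members that passed were found by the root mean square distance of mean-centred log2 values. Nearest to Mef2c were 3300002P13Rik (0.0694), Xrcc5 (0.0762) and Mfsd3 (0.123). Nearest to Myod1 were Bgn (0.140), Fcgrt (0.201) and Slc16a3 (0.233). Nearest to Myf6 were Uck2, Hopx and Stam2, each at 0.154 to 0.155, and nearest to Six4 were Jkamp (0.0793), Fam219aos (0.0926) and Trmt1l (0.103). Distances mix the change between groups with the spread within them, and other genes lay nearly as close.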

How the data were processed

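The deposited values are MAS5 signals, 1 intensity per probe set and array on a linear scale. The submitters' processing notes name MAS5. Its version and any detection calls were not given in the sources used here. Each array had been scaled to the same trimmed mean, which leaves out the most extreme signals. A change in many of the transcripts that remain can therefore shift all others. Dim MAS5 values are noisy.

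Of 45101 probe sets, 64 controls and the 40% with the lowest mean log2(signal + 16) were left out, which left 27023. The platform's annotation gave 1 symbol to 34958 of the 35890 probe sets it lists, and 99.4% of these matched mouse genes of GRCm38.p6 by gene identifier. Hypoxia was compared with control by limma 3.58.1 in R 4.3.3 (lmFit and trended eBayes, without a block, two-sided), adjusted over all 27023 probe sets. In simulated data over 27023 probe sets, 36% of 50 changes of log2 size 1 and 84% of 50 of size 2 were recovered, with 2 unchanged probe sets called. At each of the sizes 0.5, 1, 2 and 4, 50 probe sets were changed, a far smaller share than the 28.8% that passed in the data. The adjustment was therefore stricter there, and these shares do not give the recovery in the real fit. Replicate numbers came from the titles. Correlations of the deviations of same-numbered arrays ran from -0.07 to 0.01, so they gave no sign that the numbers pair the arrays. Such a correlation over all probe sets cannot exclude a pairing. The number of arrays limits the precision. Sequences came from RefSeq, and 7 of 9 members had a window. Named are all members, up to 4 genes per list with the smallest p, and every gene of a direction with 5 or fewer calls. Any other gene named was chosen after their values were seen. The members and lists were chosen with earlier results of these data known.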

Additional observations from a re-analysis of the deposited data

Results flagged for a closer look

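In 54 groups of 4 arrays, 6 had an array that stood apart from the other 3, by a gap that was more of the group's range than Dixon's critical value allows. Chance flags about 1 in 20 such groups. The gaps and ranges were taken on log2 values, and for Gapdh on the log2 ratio. The readings printed with them are linear. A gap taken on the linear readings is a different fraction of the range, and whether each array would still stand apart there was not tested. For Myf6, Hypoxia 4 read 15159 against 21253 to 22546 in the other Hypoxia arrays (gap 0.851 of the range), and it was still above all Control arrays. For Mef2c, Hypoxia 3 read 3004 on 1421028_a_at against 1129 to 1285 (gap 0.869), and Control 3 read 4130 on 1451507_at against 5615 to 5808 (gap 0.901). For Six4, Control 4 read 1168 on 1456862_at against 868 to 906 (gap 0.856). The dim Myod1 probe set 1447675_x_at read 10.5 in Control 1 against 51.0 to 61.4 (gap 0.865). The 3' to 5' ratio of Gapdh was 3.44 in Hypoxia 1 against 0.801 to 0.874 (gap 0.940).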

How the results depend on the processing

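The calls of Mef2c on all 5 probe sets, of Myf6, of Myod1 1418420_at and of Six4 1425767_a_at held in direction and test under every alternative run for them. The count of member probe sets that fell was 9, ran from 7 to 9 when 1 array was left out, and was 3 of 8 with 1 probe set per gene, which tests fewer features; the count that rose was 1 throughout. With the replicate block 7 fell and 1 rose. It ended the calls of Six4 1456862_at and 1439753_x_at (adjusted p = 0.0548 and 0.0551 by limma) and no other member's call. Over all probe sets, 3368 rose and 4422 fell (43.2% higher); leaving out 1 array gave 2616 to 3379 and 3481 to 4699, quantile normalization 4006 and 3975 (50.2% higher) and median centring 3809 and 3776 (50.2% higher). Of the pathway genes, 18 rose and 39 fell, and 13 to 16 and 31 to 39 did when 1 array was left out.

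Changes near 0 that did not pass also turned sign. Mef2a 1421252_a_at was 0.0721 with array weights and 0.0135 after median centring, and -0.20 to 0.19 when 1 array was left out. Mef2a 1452347_at was -0.10 after quantile normalization and -0.11 to 0.23 when 1 array was left out. On the same basis Mef2a 1427186_a_at ran from -0.10 to 0.29, Mef2d 1434487_at from -0.30 to 0.0152 (without Hypoxia 1) and Myog from -0.35 to 0.71. The cause was not tested. Weak signals limit Myf5, Pax7 and the dim probe sets of Myod1, Mef2d and Six4.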

Other observations

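Genes of the neuromuscular junction were singled out after their values were seen. Musk, the receptor kinase of the junction, read 610 ± 46.4 in Control and 1455 ± 158 in Hypoxia (1.23 ± 0.15), and the acetylcholine receptor subunits Chrnb1 and Chrna1 changed by 1.15 ± 0.18 and 0.78 ± 0.20. All 3 passed the limma test and separated the groups without overlap. Rapsn, which clusters the receptors at the junction, went the other way, with a change of -1.19 ± 0.32 that passed with overlapping groups (adjusted p = 0.0132 by limma), so the junction genes did not move together. Myog itself lay on both sides of Control. Chrnd and Chrng were below the filter. Xirp1, an actin-binding protein of stressed muscle, changed by 1.83, and Tnnt2, the cardiac troponin T of developing muscle, by 1.22, and both passed.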
